A study of Mus musculus with 24 samples.

Results

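The genes described here are 10 transcripts by which resting, or homeostatic, astrocytes are commonly recognised: Slc1a2, Slc1a3, Glul, Kcnj10, Aqp4, Slc4a4, Gja1, Gjb6, Aldh1l1 and Sox9. They were taken by name from a table of 21793 genes, with earlier results of these data known. All 10 passed the filter on low values that left 14162 genes for testing. The table came from 24 libraries of poly(A) RNA from the hippocampus of female mice. Of these, 12 came from 3xTg-AD mice (3xTg), a model of Alzheimer's disease that carries human APP and MAPT transgenes driven by the Thy1 promoter. The other 12 came from B6129SF2/J mice (WT), the comparison strain without these transgenes. The transgenes and any other difference between the 2 strains cannot be told apart in this design, and the Thy1 promoter drives the transgenes mainly in neurons.

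Feeding began at 3 months of age and lasted 6 months. The control diet (C) held 70% carbohydrate, 20% long-chain triglyceride and 10% protein. In the diet with medium-chain triglycerides (M, or MCT), 10% of long-chain triglyceride was replaced by 10% of medium-chain triglyceride, at the same 4.1 kcal/g as the control diet. The ketogenic diet (K) had no carbohydrate, with 90% of long-chain triglyceride beside 10% of protein, and supplied 6.7 kcal/g. The groups were WT_C, WT_K, WT_M and 3xTg_M with 4 libraries each, 3xTg_C with 3 and 3xTg_K with 5. Libraries are named by group and replicate, as in WT_C_1. The labels number them without saying that each is a separate mouse, so p-values measure the spread between these libraries.

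Astrocytes clear glutamate and potassium that neurons release, move water and bicarbonate across their membranes, and share ions and metabolites through gap junctions. Glutamate taken up by the transporters is turned into glutamine by glutamine synthetase and handed back to neurons. In injury and in plaque disease astrocytes can turn on reactive genes such as Gfap, with or without loss of the homeostatic set. In bulk hippocampal RNA, fewer astrocytes and less of a transcript per astrocyte cannot be told apart.

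The shallowest library, 3xTg_K_2, held 2.65 M gene reads, and the other 23 held 10.1 to 25.8 M. The member with the fewest reads, Sox9, had 95 to 794 reads per library, and the one with the most, Slc1a2, had 10963 to 106236. Thy1, whose level reads out the transgene cassette, lay between 6952 and 8137 normalised counts in 11 WT libraries and between 20385 and 29277 in 10 3xTg libraries. In the other 3 it went against the label: it stood at 9189 in the library labelled 3xTg_C_3, at 8112 in the library labelled 3xTg_K_1 and at 23048 in the library labelled WT_M_2. App split the same 3 libraries from their groups, at 23524, 23019 and 30297 normalised counts. No library was relabelled. Genotype differences of the 10 genes and of the gene lists, averaged over diets, follow for 24 libraries under their labels and again for the 21 whose Thy1 level went with the label.

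Of the 10, Sox9, Kcnj10 and Slc4a4 fell and Slc1a3 rose in 3xTg mice when genotypes were compared over the 3 diets. These are the 4 genes on which the genotype result turns. For 3 of them RefSeq gave a start site on GRCm38.p6, and the 250 bases before it are printed here so that the promoters of genes that moved together, and in the opposite direction, can be read side by side. RefSeq promoter entries matched 8 of the 10 genes, and Sox9 is named only. Capitals mark CCAAT, the box bound by NF-Y, and TATAAA, the TATA box, on either strand, so ATTGG and TTTATA are the same words on the other strand. Kcnj10 lies at chr1:172340960-172341209 (plus strand), Slc1a3 at chr15:8710808-8711057 (minus strand), and the 2 starts of Slc4a4 at chr5:88887010-88887259 and chr5:89027716-89027965 (plus strand).
Kcnj10: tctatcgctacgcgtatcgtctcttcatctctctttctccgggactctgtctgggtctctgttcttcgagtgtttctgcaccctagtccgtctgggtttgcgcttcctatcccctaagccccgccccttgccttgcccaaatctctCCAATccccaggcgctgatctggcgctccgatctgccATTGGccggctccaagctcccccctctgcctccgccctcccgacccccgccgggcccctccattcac
Slc1a3: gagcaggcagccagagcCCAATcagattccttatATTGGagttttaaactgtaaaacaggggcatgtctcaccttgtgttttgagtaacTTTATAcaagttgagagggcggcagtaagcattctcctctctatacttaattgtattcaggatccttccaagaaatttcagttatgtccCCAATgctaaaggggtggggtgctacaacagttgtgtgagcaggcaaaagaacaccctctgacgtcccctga
Slc4a4, first start: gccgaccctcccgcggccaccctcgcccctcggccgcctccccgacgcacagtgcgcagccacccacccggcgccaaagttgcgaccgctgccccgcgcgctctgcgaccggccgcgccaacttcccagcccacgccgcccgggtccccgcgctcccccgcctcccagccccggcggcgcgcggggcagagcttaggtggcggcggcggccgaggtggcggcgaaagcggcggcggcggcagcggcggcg
Slc4a4, second start: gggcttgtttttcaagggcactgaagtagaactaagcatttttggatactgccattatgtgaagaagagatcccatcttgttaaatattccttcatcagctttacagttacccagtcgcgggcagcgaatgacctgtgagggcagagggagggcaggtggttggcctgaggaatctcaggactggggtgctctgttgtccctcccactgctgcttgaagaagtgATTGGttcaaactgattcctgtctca

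The Kcnj10 window held CCAAT at 104 and 67 bases before the start, counted from the first base of the match on the plus strand of the gene. The Slc1a3 window held CCAAT at 233, 216 and 72 bases and TATAAA at 161 bases. In Slc4a4 the first window held neither word and had a GC content of 82.0%, and the second held CCAAT at 26 bases and had a GC content of 48.8%. Over all 32851 RefSeq promoter windows of this length, 33.8% held CCAAT, 12.4% held TATAAA, and the median GC content was 52.4%. The SOX-type words ACAAAG and ACAATG, which cannot overlap CCAAT on either strand, were searched first on both strands and stood in none of the 9 windows of the 8 matched genes, against 25.2% of all windows that held 1 or the other. CCAAT and TATAAA were added to the search after that result was seen. A match is a description of letters and does not show that a factor binds there.

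Expressed per kilobase of exon, the only scale on which levels of different genes are compared here, glutamine synthetase stood highest. Glul reached 7893 ± 588 normalised counts per kb (SD, n = 24), followed by Slc1a2 at 4596 ± 203 and Slc1a3 at 1467 ± 98.5, and this order held in all 24 libraries. Gjb6 (458 ± 64.3), Kcnj10 (441 ± 44.6), Aqp4 (402 ± 37.7) and Gja1 (379 ± 25.8) lay close together. Gjb6 was above Kcnj10 in 15 of 24 libraries, Kcnj10 above Aqp4 in 18 and Aqp4 above Gja1 in 19, so these neighbours did not separate beyond their spread. Their order also differed by genotype: Gjb6 averaged 433 per kb and Kcnj10 470 in WT, with Gjb6 above Kcnj10 in 5 of 12 libraries, and 482 and 412 in 3xTg, with Gjb6 above in 10 of 12. Slc4a4 at 275 ± 21.7 lay below Gja1 and above Aldh1l1 in every library. Aldh1l1 (141 ± 8.67) and Sox9 (130 ± 21.6) were lowest, with Aldh1l1 above Sox9 in 16 libraries, 5 of 12 in WT (143 and 144 per kb) and 11 of 12 in 3xTg (139 and 117). Exon lengths were those of all annotated transcripts of a gene joined together.

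**Figure D1:**
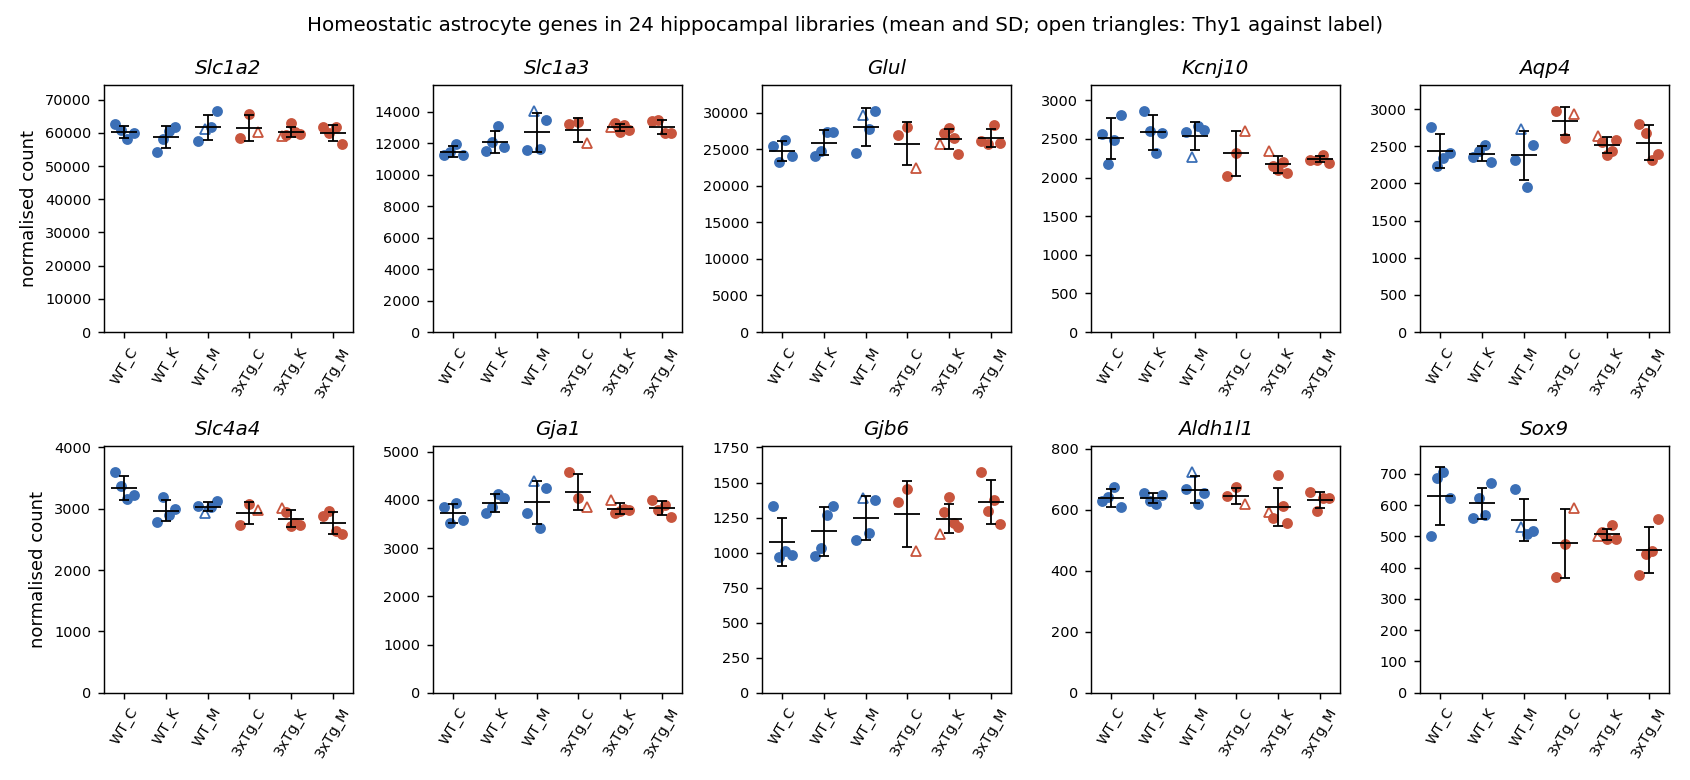
Normalised counts (vertical axis, from 0) of the 10 genes by genotype and diet group (horizontal axis); each point is 1 library, blue for WT and red for 3xTg, open triangles are the 3 libraries whose Thy1 level goes against the label, and bars are the group mean and SD. Sox9 lies between 370 and 589 in the libraries labelled 3xTg and between 501 and 705 in those labelled WT, while Slc1a2 stays between 54285 and 66454 in all 24.

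The genotype comparison asked how the hippocampus of 3xTg mice differs from that of the comparison strain, with the differences on the 3 diets averaged. Of the 10 genes, 1 rose (Slc1a3) and 3 fell (Sox9, Kcnj10, Slc4a4) at an adjusted p under 0.05, where 8.1% of all 14162 tested genes were called, 3.71% higher and 4.38% lower. Log2 differences were above 0 for 6 and below 0 for 4, with a median of 0.0052 against -0.00082 for all genes, so the 10 did not move as a block. Tests were limma on log2 of the normalised count plus 1, with Benjamini-Hochberg adjustment over all tested genes, and every log2 difference is on that scale. In the 21 libraries 5 of the 10 were called, 2 higher and 3 lower, against 13.2% of 14126 genes, 6.31% higher and 6.84% lower.

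Slc1a2 (GLT-1, chr2:102658659-102790784) and Slc1a3 (GLAST, chr15:8634124-8710764) are the glutamate transporters of astrocytes. On the control diet Slc1a3 stood at 11264, 11421, 11958 and 11218 normalised counts in WT and at 13236, 13336 and 11981 in 3xTg. With ketogenic food the WT values were 11487, 12076, 13062 and 11726 and the 3xTg values 13030, 13273, 12712, 13164 and 12857. With MCT they were 11592, 14014, 11624 and 13468 in WT and 13380, 13440, 12672 and 12618 in 3xTg. The 3xTg libraries were higher, and 11 of 12 lay above the WT mean, but the ranges overlapped: the highest WT values were 14014, in the library labelled WT_M_2, and 13468. The 3xTg library labelled 3xTg_C_3, at 11981, was the lowest of its genotype. Averaged over diets Slc1a3 was 12076 ± 925 in WT and 12975 ± 426 in 3xTg (SD, n = 12 each), a rise of 7.55% (log2 0.10 ± 0.03 SE, adjusted p = 0.045). In the 21 libraries the difference was 0.14 ± 0.03 (adjusted p = 0.0052), with 10 of 10 3xTg libraries above the WT mean. With all 24 libraries the call was near the threshold, and leaving out any 1 of 15 libraries took it past 0.05, to at most 0.11 without 3xTg_C_1.

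Slc1a2 showed the smallest spread of the 10 genes over the 24 libraries together, with a coefficient of variation of 4.41%. Within WT it was 5.06%, against 4.85% for Aldh1l1, and within 3xTg 3.88%, against 3.28% for Slc1a3. Slc1a2 ranged from 54285 to 66454 in WT (median 60775) and from 56649 to 65798 in 3xTg (median 60071). The genotype difference was 0.01 ± 0.03 (adjusted p = 0.91), with a 95% interval of -0.056 to 0.073, and 0.01 ± 0.04 in the 21 libraries (adjusted p = 0.85; -0.061 to 0.09). Glul (glutamine synthetase, chr1:153899944-153909723) ranged from 23195 to 30159 in WT (median 25860) and from 22405 to 28338 in 3xTg (median 26309). Its difference was 0.00 ± 0.04 (adjusted p = 0.98; 95% interval -0.083 to 0.087), and 0.05 ± 0.04 in the 21 libraries (adjusted p = 0.5; -0.038 to 0.13). Glul has near-identical pseudogene copies, and how the counting treated shared reads is not given in the sources used here. Of these 3 glutamate genes, the transporter GLAST was higher in 3xTg, while neither GLT-1 nor glutamine synthetase was called.

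Kcnj10 (Kir4.1, chr1:172341210-172374085) is the inward rectifier through which astrocytes take up potassium. It stood at 2564, 2170, 2483 and 2816 normalised counts in WT_C and at 2020, 2316 and 2607 in 3xTg_C. WT_K libraries held 2857, 2600, 2312 and 2575, and 3xTg_K libraries 2342, 2145, 2103, 2200 and 2059. WT_M libraries held 2584, 2266, 2670 and 2622, and 3xTg_M libraries 2234, 2227, 2287 and 2195. The 3xTg values were lower, with 11 of 12 below the WT mean and 4 below every WT library, and the ranges overlapped. The one 3xTg value above the WT mean, 2607, is that of the library labelled 3xTg_C_3, and the library labelled WT_M_2 is among the 3 lowest of WT. Kcnj10 fell by 11.9%, from 2543 ± 208 to 2228 ± 155 (SD, n = 12 each; log2 -0.18 ± 0.04, adjusted p = 0.013). In the 21 libraries the difference was -0.24 ± 0.04 (adjusted p = 0.00044) and all 10 3xTg libraries lay below the WT mean.

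Slc4a4 (NBCe1, chr5:88886818-89239653) carries sodium and bicarbonate and sets astrocyte pH. WT_C libraries held 3597, 3379, 3153 and 3225, and 3xTg_C libraries 2735, 3071 and 2982. Ketogenic values were 2791, 3199, 2897 and 3000 in WT and 3017, 2949, 2721, 2770 and 2729 in 3xTg. MCT values were 3046, 2937, 3028 and 3131 in WT and 2885, 2964, 2645 and 2588 in 3xTg. All 12 3xTg libraries were below the WT mean and 6 were below every WT library, with WT_C as the group that stood highest. Slc4a4 fell by 8.58%, from 3115 ± 220 to 2838 ± 159 (log2 -0.13 ± 0.03, adjusted p = 0.014). The 21 libraries gave -0.15 ± 0.04 (adjusted p = 0.0075). With 24 libraries, leaving out 3xTg_C_1 gave an adjusted p of 0.051.

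Aqp4 (aquaporin-4, chr18:15389496-15410982) is the water channel of astrocyte endfeet. It stood at 2763, 2238, 2337 and 2413 in WT_C and at 2970, 2617 and 2932 in 3xTg_C. WT_K libraries held 2356, 2440, 2524 and 2288, and 3xTg_K libraries 2636, 2561, 2377, 2433 and 2579. WT_M libraries held 2316, 2728, 1952 and 2524, and 3xTg_M libraries 2807, 2683, 2310 and 2401. On the 3 diets together 9 of 12 3xTg libraries were above the WT mean and 3 above every WT library. The difference of 0.13 ± 0.05 did not pass with 24 libraries (adjusted p = 0.083) or with 21 (0.14 ± 0.05, adjusted p = 0.058). It passed without WT_C_1 (0.15, adjusted p = 0.043) and without the library labelled WT_M_2 (0.15, adjusted p = 0.028). Kcnj10 and Aqp4 both sit in endfeet, and the 24-library values for the former went down while those for the latter, not called, were above 0.

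Gja1 (connexin 43, chr10:56377330-56402513) and Gjb6 (connexin 30, chr14:57123303-57133611) form the gap junctions between astrocytes. Gjb6 stood at 1333, 971, 1010 and 983 in WT_C and at 1358, 1457 and 1009 in 3xTg_C. WT_K libraries held 976, 1033, 1267 and 1332, and 3xTg_K libraries 1136, 1291, 1395, 1213 and 1180. WT_M libraries held 1088, 1392, 1142 and 1377, and 3xTg_M libraries 1574, 1297, 1372 and 1201. The 2 lowest 3xTg values, 1009 and 1136, are the libraries labelled 3xTg_C_3 and 3xTg_K_1, and the highest WT value, 1392, is the library labelled WT_M_2. With all 24 libraries the difference was 0.16 ± 0.07 (adjusted p = 0.16). Without those 3 libraries Gjb6 rose in 3xTg by 18.4% (0.24 ± 0.07, adjusted p = 0.022), with 10 of 10 3xTg libraries above the WT mean. Leaving out 3xTg_C_3 alone gave 0.21 (adjusted p = 0.044). The result for Gjb6 therefore rests on how those libraries are treated.

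Gja1 ranged from 3416 to 4400 in WT (median 3854) and from 3640 to 4577 in 3xTg (median 3838), and its difference of 0.03 ± 0.04 was not called (adjusted p = 0.73; 21 libraries, 0.05 ± 0.04, adjusted p = 0.37). Aldh1l1 (chr6:90486427-90600203), a folate enzyme used as a pan-astrocyte marker, ranged from 608 to 723 in WT (median 645) and from 557 to 715 in 3xTg (median 628). Its difference was -0.04 ± 0.04 (adjusted p = 0.53; 21 libraries, -0.02 ± 0.04, adjusted p = 0.85). The lowest Aldh1l1 values, 557 to 592, were all from 3xTg_K libraries, a group that also held the highest 3xTg value, 715. Among the low ones, 573 is the shallow library 3xTg_K_2 and 592 is the library labelled 3xTg_K_1.

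Sox9 (chr11:112782224-112787760), a transcription factor that marks nearly all astrocytes in the adult brain and directs gliogenesis earlier, differed most. WT_C libraries held 501, 686, 705 and 623 normalised counts, and 3xTg_C libraries 370, 474 and 589. WT_K libraries held 560, 622, 569 and 669, and 3xTg_K libraries 500, 513, 490, 535 and 491. WT_M libraries held 652, 530, 507 and 518, and 3xTg_M libraries 375, 445, 452 and 554. All 12 3xTg libraries lay below the WT mean and 8 lay below every WT library, and the ranges overlapped between 501 and 589. The highest 3xTg value, 589, is the library labelled 3xTg_C_3. Sox9 fell by 19.6%, from 595 ± 73.5 to 482 ± 65.4 (SD, n = 12 each; log2 -0.31 ± 0.07, adjusted p = 0.0088). In the 21 libraries it was -0.37 ± 0.07 (adjusted p = 0.0013). Sox9 also had the widest spread of the 10 genes over the 24 libraries together, with a coefficient of variation of 16.5%, which holds the genotype difference. Within WT it was 12.3% for Sox9 and 14.6% for Gjb6, and within 3xTg 13.6% and 11.9%. Without the shallow library 3xTg_K_2 the Sox9 difference was -0.32 (adjusted p = 0.013).

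**Figure D2:**
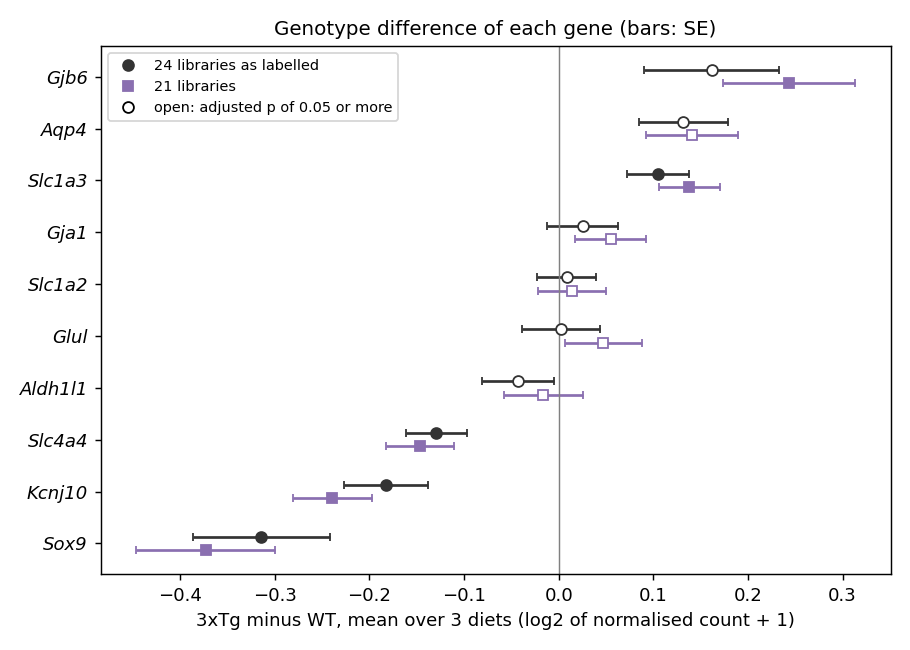
Difference between genotypes (3xTg minus WT, log2 of normalised count + 1, mean over the 3 diets; horizontal axis) for each gene (vertical axis), with SE bars; circles are the 24 libraries as labelled, squares the 21 libraries, and filled symbols passed an adjusted p of 0.05. Sox9 lies at -0.31 and -0.37 and Gjb6 at 0.16 and 0.24, the first filled in both fits and the second in the 21 libraries only.

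Within a single diet, groups of 3 to 5 libraries were compared and none of the 10 genes was called with 24 libraries, where 0.0565% of all genes were called on the control diet (0.00706% higher, 0.0494% lower), 0.155% on ketogenic food (0.0636% higher, 0.0918% lower) and 0% on MCT. At an unadjusted p under 0.05, 5 of the 10 passed on the control diet, 2 on ketogenic food and 3 on MCT. Of all 14162 genes, 2050, 2073 and 1008 passed that threshold in the same order. Sox9 differed by -0.41 ± 0.13 on the control diet, -0.25 ± 0.12 on ketogenic food and -0.28 ± 0.12 on MCT, in the same direction each time. Leaving out 3xTg_C_1 alone brought Sox9 on the control diet to -0.24, and leaving out the library labelled 3xTg_C_3 to -0.57. Kcnj10 differed by -0.12 ± 0.08, -0.25 ± 0.07 and -0.18 ± 0.08 in that order, and the first of these ranged from -0.21 without the library labelled 3xTg_C_3 to -0.02 without 3xTg_C_1. Slc4a4 gave -0.19 ± 0.06, -0.07 ± 0.05 and -0.13 ± 0.06, and Slc1a3 gave 0.16 ± 0.06, 0.11 ± 0.05 and 0.04 ± 0.06. For these 4 genes the sign was the same on all 3 diets. They were called on the mean of these same 3 differences, so the shared sign is partly built in. Aqp4 (0.22, 0.07 and 0.11) and Gjb6 (0.24, 0.12 and 0.12), not called with 24 libraries, also kept their sign. Of the smallest values of the 4 genes, 2 moved with 1 library. Slc4a4 on ketogenic food moved to -0.03 without WT_K_2. Slc1a3 on MCT moved to 0.0031 without WT_M_1 and to 0.09 without the library labelled WT_M_2. In the 21 libraries Sox9 fell on the control diet (-0.57 ± 0.14, adjusted p = 0.037, 1.74% of genes called, 0.828% higher and 0.913% lower) and Kcnj10 fell on ketogenic food (-0.28 ± 0.07, adjusted p = 0.018, 3.62% called, 1.76% higher and 1.85% lower), and none of the 10 was called on MCT (1.77% called, 0.927% higher and 0.842% lower). With 21 libraries the control comparison has only 2 3xTg libraries, at 370 and 474 for Sox9.

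The diets themselves were compared within each genotype and over both. None of the 10 genes was called for ketogenic or MCT feeding in WT, in 3xTg or over both genotypes, for ketogenic minus MCT, or for the interaction of a diet with genotype. Of all genes, 0% were called for ketogenic food in either genotype and over both, 0.00706% for MCT in WT, 0% for MCT in 3xTg and over both genotypes, 0.00706% for ketogenic minus MCT, and 0% for each interaction. DESeq2 and edgeR on the recovered reads also called none of the 10 in these comparisons. These calls are therefore at the background, and what the data give is a set of limits. The 95% intervals of the 10 genes lay within -0.30 and 0.35 for ketogenic food in WT, -0.34 and 0.37 in 3xTg, -0.44 and 0.47 for MCT in WT, and -0.34 and 0.38 in 3xTg. Across the 21 libraries they were wider for ketogenic food in 3xTg, at -0.43 to 0.57, where Sox9 was 0.27 ± 0.14 and Gjb6 -0.15 ± 0.13, and 3xTg_C is left with 2 libraries. A p that misses the threshold does not show that the diets left these genes alone.

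Over the diet comparisons and interactions with 24 libraries, 9 values of the 10 genes had an unadjusted p under 0.05 and failed the adjustment. All 10 genes were tested in each of these comparisons, which share libraries. Among all 14162 genes, 378 to 948 had an unadjusted p under 0.05 in a comparison of this kind. Slc4a4 was lower in WT_K than in WT_C (2972 ± 174 against 3338 ± 196 normalised counts, n = 4 each; log2 -0.17 ± 0.06, adjusted p = 0.98) and likewise in WT_M (3035 ± 79.8; -0.14 ± 0.06, adjusted p = 0.99). WT_M libraries held 2937 to 3131, the lowest being the library labelled WT_M_2. WT_C libraries held 3153 to 3597, and WT_K reached 3199. Without the 3 libraries Slc4a4 with MCT in WT was -0.12 ± 0.06 (limma, unadjusted p = 0.059). The WT_C libraries are shared by both comparisons and by the genotype comparison on the control diet. Glul in WT_M was 28026 ± 2597 against 24728 ± 1388 in WT_C (0.18 ± 0.07), and Slc1a3 was 12675 ± 1252 against 11465 ± 340 (0.14 ± 0.06), each with an adjusted p of 0.99. The library labelled WT_M_2 stood at 29698 for Glul and 14014 for Slc1a3, and without the 3 libraries Slc1a3 was 0.09 ± 0.05 (unadjusted p = 0.11) and Glul 0.15 ± 0.07 (unadjusted p = 0.044), from limma in both cases. In 3xTg, Aqp4 was 2517 ± 108 in 3xTg_K (n = 5) against 2840 ± 194 in 3xTg_C (n = 3; -0.17 ± 0.08, adjusted p = 0.73). Over both genotypes Slc4a4 differed by -0.11 ± 0.04 with ketogenic food (adjusted p = 0.95) and by -0.11 ± 0.04 with MCT, and Glul by 0.11 ± 0.05 with MCT (adjusted p of 1 for both). The Glul value was 0.06 without the library labelled 3xTg_C_3. Without the 3 libraries Slc4a4 over both genotypes was -0.11 ± 0.04 with ketogenic food (limma, unadjusted p = 0.019). With MCT it was -0.09 ± 0.05 (limma, unadjusted p = 0.052). The interaction of ketogenic food with genotype was -0.20 ± 0.09 for Gja1 (adjusted p = 0.74). It was -0.13 without 3xTg_C_1 and -0.25 without the library labelled 3xTg_C_3. In the 21 libraries, with 2 left in 3xTg_C, it was -0.27 ± 0.09 (limma, unadjusted p = 0.0085, adjusted p = 0.75).

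**Figure D3:**
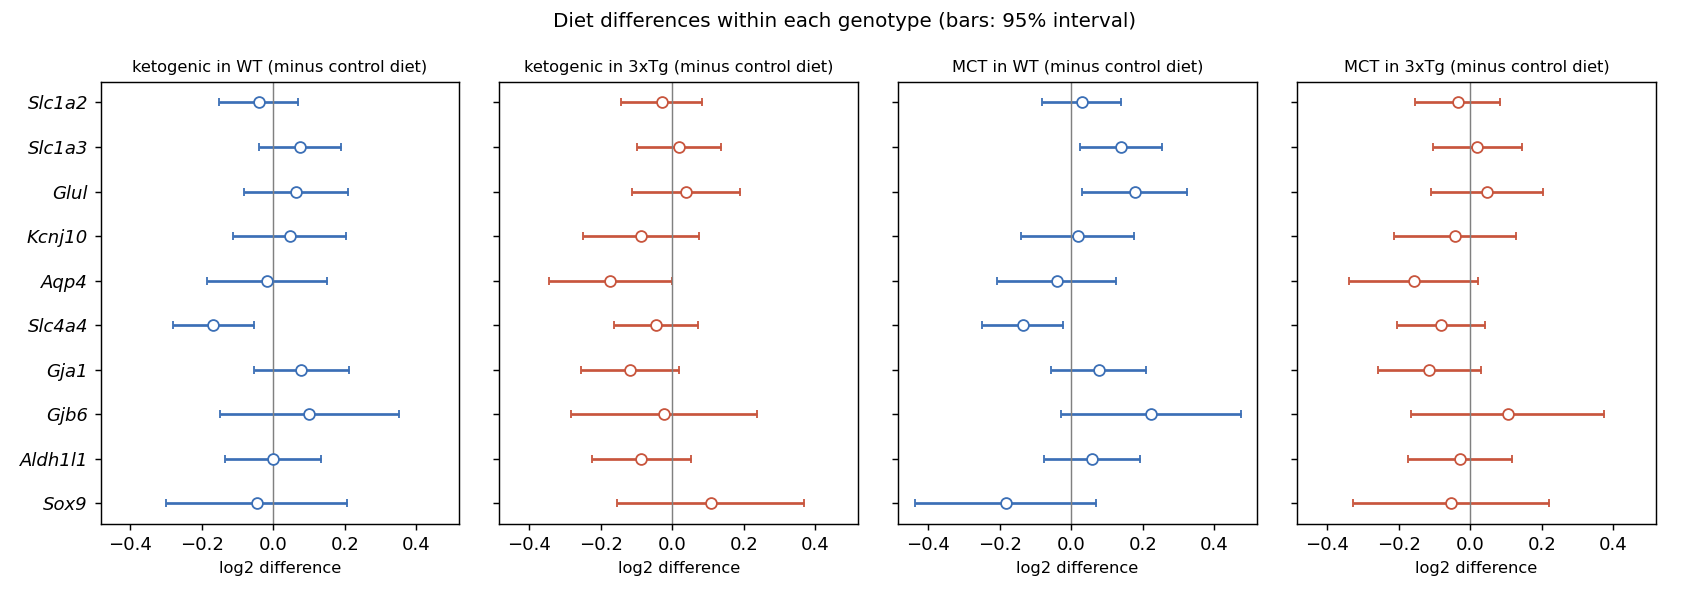
Diet minus control diet within each genotype (log2 of normalised count + 1, horizontal axes) for the 10 genes (vertical axis), with 95% intervals from the fit of all 24 libraries; blue is WT and red is 3xTg, and open points mark that none passed an adjusted p of 0.05. The 5 intervals that lie to one side of 0 are those of Slc4a4 in WT on both diets, Slc1a3 and Glul in WT on MCT, and Aqp4 in 3xTg on ketogenic food, where the interval ends next to 0.

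Other astrocyte genes were read from 5 lists of 55 genes in all, none of them among the 10, and all 55 were tested. In 3xTg 1 was called higher and 7 lower over the 3 diets (3.71% and 4.38% of all genes), 19 values were above 0 and 36 below, and the median was -0.048. The 21 libraries gave 5 higher and 12 lower, where 6.31% of all genes were called higher and 6.84% lower. Of the 9 transcription factors in these lists none was called higher and 3 were called lower, all 9 values were below 0, and their median was -0.17. Of the 9, 5 were called lower in the 21 libraries, 8 of 9 values were below 0 and the median was -0.25. Sox2, a SOX factor of neural stem cells and astrocytes, fell from 630 ± 80.3 to 475 ± 55.1 normalised counts (log2 -0.41 ± 0.06, adjusted p = 0.0005). Nfix, a nuclear factor I protein of glial differentiation, fell from 3198 ± 257 to 2776 ± 219 (-0.21 ± 0.04, adjusted p = 0.0053). Tjp1, a tight junction scaffold, fell from 2315 ± 83.7 to 2153 ± 84.9 (-0.11 ± 0.03, adjusted p = 0.013). Grm3, a metabotropic glutamate receptor of astrocytes, was the 1 gene of the 55 that rose, from 638 ± 44.9 to 762 ± 81.6 (0.27 ± 0.05, adjusted p = 0.0019). These 4 genes were called in each of the 24 fits that left out 1 library. Sox2 in the 21 libraries was -0.46, Nfix -0.25, Tjp1 -0.11 and Grm3 0.29, each called (highest adjusted p 0.0071, for Tjp1).

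By role, against 3.71% of all genes called higher and 4.38% lower, the lists of other glutamate and GABA genes had 1 of 8 higher and 1 lower (median -0.032), potassium, water and ion genes 0 of 11 higher and 1 lower (median -0.062), gap junction and adhesion genes 0 of 9 higher and 2 lower (median 0.025), and metabolic and secreted genes 0 of 18 in either direction (median 0.013). Against 6.31% and 6.84% in the 21 libraries, these lists gave 1 higher and 2 lower (median -0.034), 0 and 1 (-0.089), 1 and 3 (0.00075), and 3 and 1 (0.025) in the same order. For the diets and the interactions, 0 of the 55 were called with 24 libraries. Of 13 reactive astrocyte genes tested among 15 listed, 2 were called higher and 1 lower over diets, in 24 and in 21 libraries. These 3 are named because their values were seen: Gfap, an intermediate filament, rose from 4595 ± 552 to 5354 ± 528 (0.24 ± 0.05, adjusted p = 0.0094), and Osmr, a cytokine receptor, rose from 125 ± 14.7 to 153 ± 22.6 (0.27 ± 0.08, adjusted p = 0.041). Serpina3n, a secreted protease inhibitor, fell from a median of 3460 in WT to 875 in 3xTg (-1.30 ± 0.28, adjusted p = 0.0053). Osmr lost its call in 15 of the 24 fits that left out 1 library, to an adjusted p of at most 0.13. With 21 libraries Gfap was 0.27, Osmr 0.33 (adjusted p = 0.011) and Serpina3n -1.84, all called.

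Summed over the 10 genes, the normalised count was 103763 to 125152 in WT (median 112579) and 108388 to 121754 in 3xTg (median 113357), so the total overlapped between genotypes. Markers of other cells are given for the genotype comparison over diets, where 3.71% of all genes were called higher and 4.38% lower. Of 10 oligodendrocyte markers 3 were called higher and 0 lower, all 10 values were above 0 (2 higher, 0 lower and 7 of 10 above 0 in the 21 libraries), and their summed level was 55930 to 91827 in WT (median 68125) and 68926 to 92345 in 3xTg (median 80210). Of 11 neuron markers 1 was higher and 2 lower (sums 148377 to 168007 in WT, median 155912; 140072 to 164993 in 3xTg, median 149737). Of 9 microglia markers 1 was higher and 0 lower (sums 4591 to 5949 in WT, median 5427; 5252 to 6023 in 3xTg, median 5610). Of 10 endothelial and mural markers 0 were higher and 3 lower (sums 5409 to 6657 in WT, median 5750; 4904 to 5891 in 3xTg, median 5259). Of 6 oligodendrocyte precursor markers 0 were higher and 1 lower (sums 3264 to 4109 in WT, median 3772; 3184 to 4056 in 3xTg, median 3721). For the 21 libraries the counts of higher and lower calls were 1 and 2 for neuron, 2 and 0 for microglia, 0 and 3 for endothelial and mural, and 0 and 1 for precursor markers. These counts, and those of the oligodendrocyte markers in the 21 libraries, stand against 6.31% of all genes called higher and 6.84% lower. Kcnj10 is also made by oligodendrocytes. The part of these cells in the genotype results was not tested.

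Tissue next to the hippocampus was checked too. None of the 7 choroid plexus genes tested of 9 was called, but their sum was 13382 in WT_C_1 and 4966 in WT_K_1, against 470 to 879 in the other 22 libraries. Without WT_C_1 the genotype differences were -0.35 for Sox9 (adjusted p = 0.0043), -0.18 for Kcnj10 (adjusted p = 0.022), -0.12 for Slc4a4 (adjusted p = 0.026) and 0.10 for Slc1a3 (adjusted p = 0.066, no longer called). None of 6 ependymal genes tested of 7 (sums 152 to 395 in WT and 184 to 367 in 3xTg) or of 8 meningeal fibroblast genes (3159 to 8438 in WT and 3443 to 8353 in 3xTg) was called, and none of the choroid plexus, ependymal or meningeal genes was called in the 21 libraries. No gene of any of these lists was at 0 in every library.

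From library to library the correlations between the 10 genes lay on both sides of 0, and no pair below 0 passed. After each group's mean was removed, Pearson correlations over the 45 pairs of genes had a median of 0.15 in 24 libraries, a range of -0.59 to 0.78, and were above 0 in 26 pairs. P-values came from 100000 permutations within groups, two-sided, with adjustment over the 45 pairs. Gjb6 and Glul correlated at r = 0.78 (permutation p = 0.00037, adjusted 0.017; Spearman rho 0.72, permutation p = 0.0012, adjusted 0.035), and at 0.77 without the 2 libraries farthest from the Gjb6 median. Slc1a2 and Gjb6 correlated at r = 0.70 (permutation p = 0.002, adjusted 0.045; rho 0.73, permutation p = 0.0016, adjusted 0.035), and at 0.67 without the 2 libraries farthest from the Slc1a2 median. These were the 2 pairs that passed. In the 21 libraries Slc1a2 and Gjb6 passed (r = 0.78, permutation, adjusted p = 0.005; rho 0.77, adjusted p = 0.0095) and Gjb6 and Glul did not (r = 0.68, permutation, adjusted p = 0.11; rho 0.72, adjusted p = 0.12). Gja1 with Slc1a3 (r = 0.77, rho 0.72) and with Aqp4 (r = 0.68, rho 0.58) did not pass in 24 libraries (permutation, adjusted p = 0.097 for r in both). All these values share their libraries and scaling.

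**Figure D4:**
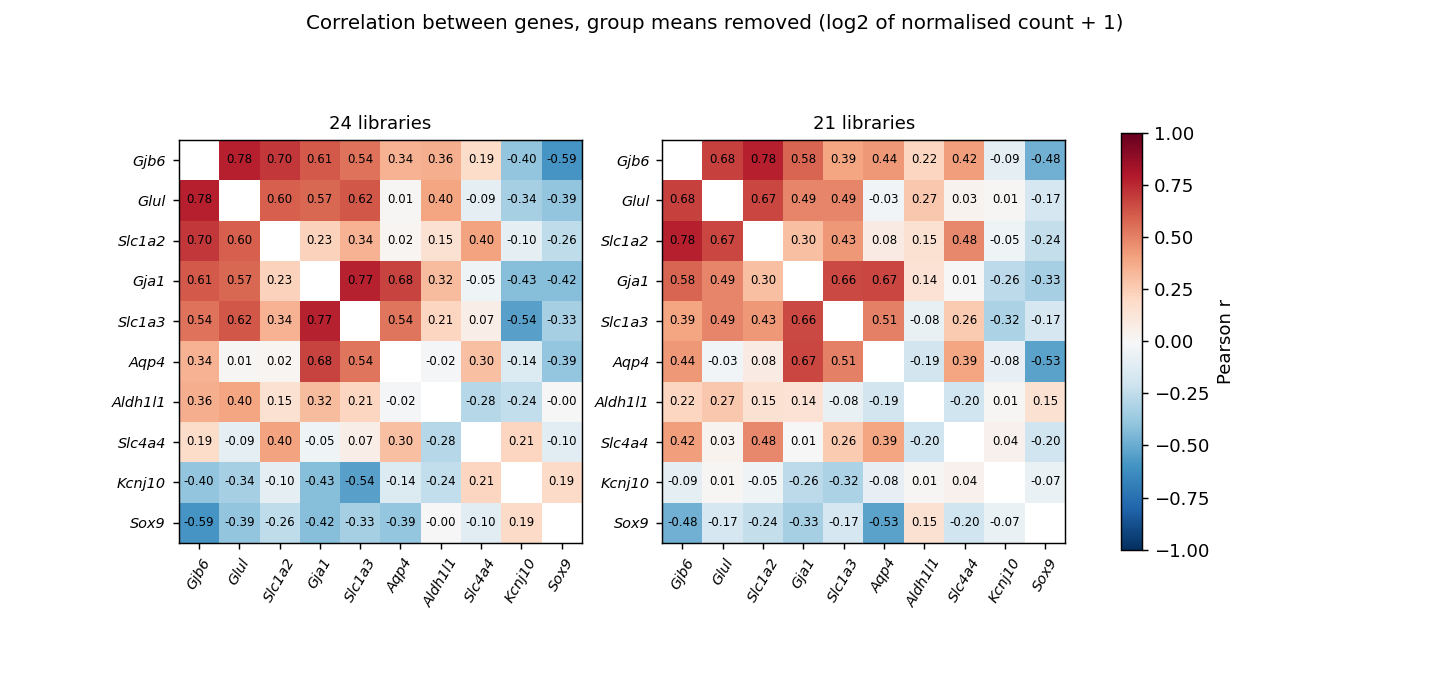
Pearson correlation (colour and printed value, scale from -1 to 1) between the 10 genes over libraries after each group's mean was removed, for the 24 libraries (left) and the 21 (right); genes are in the same order on both axes. Values among Gjb6, Glul, Slc1a2, Gja1 and Slc1a3 are all above 0 in both panels. In the 24 libraries Aldh1l1 and Aqp4 are also above 0 with each of these genes, with Aqp4 near 0 for Glul and Slc1a2. Sox9 has values of -0.59 with Gjb6 and -0.39 with Glul in the 24 libraries.

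Over the 24 libraries Sox9 and Kcnj10 had values below 0 against the mean of the other 9 genes. Set against the mean of the other 9 genes over the 24 libraries as measured, Gja1 correlated at 0.59, Slc1a2 at 0.53, Glul at 0.52, Gjb6 at 0.47, Aldh1l1 at 0.35, Slc1a3 at 0.26, Aqp4 at 0.15 and Slc4a4 at 0.00, while Kcnj10 stood at -0.22 and Sox9 at -0.41. These values hold the genotype difference as well. With group means removed the order was Gjb6 0.68, Gja1 0.60, Slc1a3 0.58, Glul 0.56, Slc1a2 0.54, Aqp4 0.33, Aldh1l1 0.21, Slc4a4 0.15, Kcnj10 -0.37 and Sox9 -0.47. The means were those of the labelled groups, so the 3 libraries whose Thy1 went against the label can still carry a genotype difference. The order was not computed for the 21 libraries. In those 21, Kcnj10 stood at -0.09 with Gjb6, 0.01 with Glul and -0.32 with Slc1a3. In the 24 libraries these pairs stood at -0.40, -0.34 and -0.54. There Kcnj10 stood at 0.19 with Sox9 (rho 0.04) and at 0.21 with Slc4a4 (rho 0.27), group means removed. Neither pair passed (permutation, adjusted p = 0.68 and 0.56 for r). In the 21 libraries the 2 values were -0.07 and 0.04. The correlation of Sox9 with Gjb6, the most negative of the pairs in the 24 libraries once group means were removed, was -0.59 (rho -0.47, permutation, adjusted p = 0.11 and 0.2), and -0.41 without the 2 libraries farthest from the Gjb6 median. For the 21 libraries this pair stood at -0.48 (permutation, adjusted p = 0.35). Among 12358 genes with a mean of at least 32, those other than the 10 most like the mean of their standardised values were Tsc22d4 (r = 0.67), Ezr (0.67), Mxd4 (0.65), Fgfr3 (0.64) and Enox2 (0.64). With group means removed they were Mt2 (0.79), Tsc22d3 (0.78), Usp54 (0.78), Sdc4 (0.78) and D3Ertd751e (0.78), over the same 24 libraries. Without the shallow library Ezr and Tsc22d4 were again among the 5 for values as measured, and Tsc22d3, Sdc4 and Mt2 among the 5 with group means removed.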

How the data were processed

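Poly(A) RNA of the hippocampus was sequenced in 24 libraries, 1 per sample. Reads were handled with Trimmomatic and STAR on GRCm38, per the submitters' processing notes, while for the gene counter, its use of strand, the annotation and the scaling the tool is not given in the sources used here. As deposited by the authors, the signal is a normalised read count for each of 21793 genes. Dividing a library's values by its smallest step gave whole numbers, to within 0.01 reads, for 100% of values in each library, so whole reads were recovered. Depth was 2.65 to 25.8 M reads per library. Each value is thus relative to the rest of its library.

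Genes at 10 or more in at least 3 libraries (14162 genes) went into a linear model (limma 3.58.1, R 4.3.3) of log2(value + 1), with 1 mean for each of 6 groups and a mean-dependent prior variance. All groups thus share 1 estimate of the spread. Tests were two-sided, Benjamini-Hochberg adjusted over all fitted genes, and called under 0.05. Groups came from the sample titles. Alternatives changed the pseudocount (0.5 or 5), the filter (none, or mean 50 or more), the scaling (quantile, or TMM), the weights of libraries, the groups fitted (those compared only) or added a block for replicate number. Others used edgeR 4.0.16 and DESeq2 1.42.0 on recovered reads, or left out the 3 libraries whose Thy1 goes against the label, the shallow library, or each library in turn, and, added after the data were seen, the 3 and the shallow library together. The fit was tested on simulated data.

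All 10 genes are named in every comparison, as are up to 4 called genes of the wider astrocyte lists and the 5 genes most like the 10. Other cell types are given as counts, medians and sums. The members, lists and rules were chosen with earlier results of these data known. Positions and exon lengths came from GENCODE release M21 on GRCm38, matched by symbol for all 10, and promoters from RefSeq on GRCm38.p6.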

Additional observations from a re-analysis of the deposited data

Results flagged for a closer look

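Within groups of 4 or 5 libraries, 1 library lay far from the others of its group for 3 genes. Gjb6 stood at 1333 in WT_C_1, where the other 3 WT_C libraries held 971 to 1010, and WT_C_1 is also the library with the highest choroid plexus sum. Sox9 stood at 652 in WT_M_1, where the others held 507 to 530. Glul stood at 28338 in 3xTg_M_3, where the others held 25693 to 26123. These are 3 of 50 groups examined, and chance marks about 1 group in 20.

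For Gja1 the difference between ketogenic and control food had opposite signs in the 2 genotypes, and neither passed. The log2 difference was 0.08 ± 0.06 in WT and -0.12 ± 0.07 in 3xTg (limma, adjusted p = 0.98 and 0.74), and the difference between them was -0.197. The interaction was tested with limma and did not pass (-0.20 ± 0.09, adjusted p = 0.74 over all genes). In the 21 libraries it was -0.27 ± 0.09 and did not pass either (adjusted p = 0.75). Both genotype effects use their own control group.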

How the results depend on the processing

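For the 10 genes over diets, 24 fits that left out 1 library gave 2 to 5 called, against 4 with all libraries. Sox9 and Kcnj10 were called in all 24 and in all 14 other alternatives, with Kcnj10 reaching an adjusted p of 0.049 without 3xTg_C_1. Slc1a3 was also lost with no filter (0.069), and Gjb6 was gained when the 3 libraries and the shallow one were left out (0.033). Without the 3 libraries 1 gene was called on the control diet and 1 on ketogenic food, and likewise 1 and 1 when the shallow library was left out too. No direction of a called gene reversed in any fit. For the diets and interactions, 0 of the 10 were called in every fit run. Of all genes, 1147 were called over diets, 576 to 1511 when 1 library was left out, 1797 with library weights, 1858 without the 3 libraries and 1758 without the shallow one as well. Within diets the counts were 8, 22 and 0 (control, ketogenic, MCT), and reached at most 264, 511 and 271 in the alternatives.

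The replicate block called 3 of the 10 over diets, with Slc1a3 at an adjusted p of 0.057, and changed no other call. Same-numbered libraries of different groups did not deviate together: their correlations had a median of 0.021 (55 pairs, -0.34 to 0.36), against -0.00066 in 184 pairs with different numbers, so the numbers are taken as names. Depth was least for Sox9, with 95 reads in the shallow library.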
